A study of Homo sapiens with 7 samples.

Results

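The genes described here are 10 transcriptional outputs of the BRAF-MEK-ERK pathway that were read by name from the deposited table, namely DUSP4, DUSP6, SPRY2, SPRY4, SPRED1, SPRED2, ETV4, ETV5, EGR1 and PHLDA1. All 10 were among the 21305 genes of the table and among the 15420 genes tested. RNA was sequenced from 501Mel, a human melanoma line, in which a short hairpin RNA was expressed from a doxycycline-inducible lentiviral vector. The 7 libraries comprised 3 controls, in which the hairpin targets lacZ of bacteria (shlacZ), 2 with sh4 and 2 with sh8, where sh4 and sh8 are different hairpins against the long non-coding RNA GRASLND. Every library, control included, came from cells that carried a hairpin vector and were treated with doxycycline, and RNA was taken 3 days after induction. The cells were pools of transduced cells and not single clones, all in 1 cell line, and nothing in the labels says that libraries of a group came from separate cultures, so that p-values measure only the spread between these libraries, which may be technical.

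In the ERK cascade, a RAS protein activates a RAF kinase, which phosphorylates MEK, which in turn phosphorylates ERK. Active ERK switches on a set of genes, many of whose products dampen the cascade again and thereby close a negative feedback loop. Melanomas often carry activating BRAF mutations, 501Mel among them, and transcripts of these feedback genes are widely used as a readout of ERK output in such cells. Transcript level is not kinase activity, however, and ERK phosphorylation was not measured in these data.

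The reads counted over the genes of the table summed to between 13337317 and 22855232 per library, which is not the full sequencing depth. GRASLND itself was lower in all 4 knockdown libraries. Its range was 290 to 330 normalized counts for shlacZ, 131 to 175 for sh4 and 163 to 227 for sh8. In the limma test, the fall of GRASLND with sh4 was called, at a log2 fold change of -1.02 (adjusted p 0.00662). The sh8 estimate of -0.68 missed the 0.05 threshold (adjusted p 0.110 by limma). The direct comparison of the hairpins, at -0.34 for sh4 minus sh8, missed it too (adjusted p 0.421 by limma). A normalized count is the number of reads of a gene after division by the size factor of its library. All 7 melanocytic markers (MITF, MLANA, PMEL, TYR, DCT, TYRP1 and SOX10) were detected, as the label of a melanoma line requires, and none was at 0. Their summed level was 135575 to 146343 in the control, 51868 to 59737 under sh4 and 101544 to 104484 under sh8. Under sh4, 6 of the 7 were lower with an adjusted p under 0.05 and TYR was not, beside 22.5% of all tested genes that passed in either direction, whereas 0 of 7 passed under sh8 (by limma, with 5 at an unadjusted p under 0.05, and 0 by limma-voom), beside 2.92% of all genes. Of 8 markers of immune, endothelial, epithelial and stromal cells, the table held CD68 and COL1A1, with a summed level of 498.6 to 683 in the control, 458 to 583 under sh4 and 581 to 679 under sh8. Nearly all of this sum was CD68, with control means of 567 normalized counts for CD68 and 9.14 for COL1A1. Whether the change in melanocytic markers has a part in the values below was not tested.

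In the control, the members covered a wide span of levels when scaled to the length of the canonical transcript (GENCODE release 44). ETV5, a transcription factor of the PEA3 group of ETS proteins, stood highest at 1630 ± 88.7 normalized counts per kb (SD, n = 3), and its relative ETV4 followed at 1009 ± 58.3. SPRED2, a membrane protein that restrains RAS signalling through neurofibromin, came next at 570.4 ± 21.5. Each of these 3 was apart from its neighbour in the order in every control library. DUSP4, further down the order, reached 588.57 per kb in the third control library, within the SPRED2 control range of 556.57 to 595.23. PHLDA1 (456 ± 45.8), DUSP6 (439 ± 102), DUSP4 (431 ± 161), SPRY4 (355 ± 145), EGR1 (316 ± 159), SPRED1 (293 ± 11.9) and SPRY2 (283 ± 69.9 normalized counts per kb) followed, and among these each overlapped with the next in the order. Under both hairpins ETV5 was again the highest per kb, at 2922 ± 35.3 under sh4 and 2204 ± 446 under sh8 (SD, n = 2 each). SPRY4 stood at 810 ± 36.6 per kb under sh4 and 686 ± 236.5 under sh8, above the SPRED2 mean of the same libraries, which was 556 ± 5.30 and 643 ± 47.2. Under sh8, however, the libraries of these genes overlapped.

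**Figure D1:**
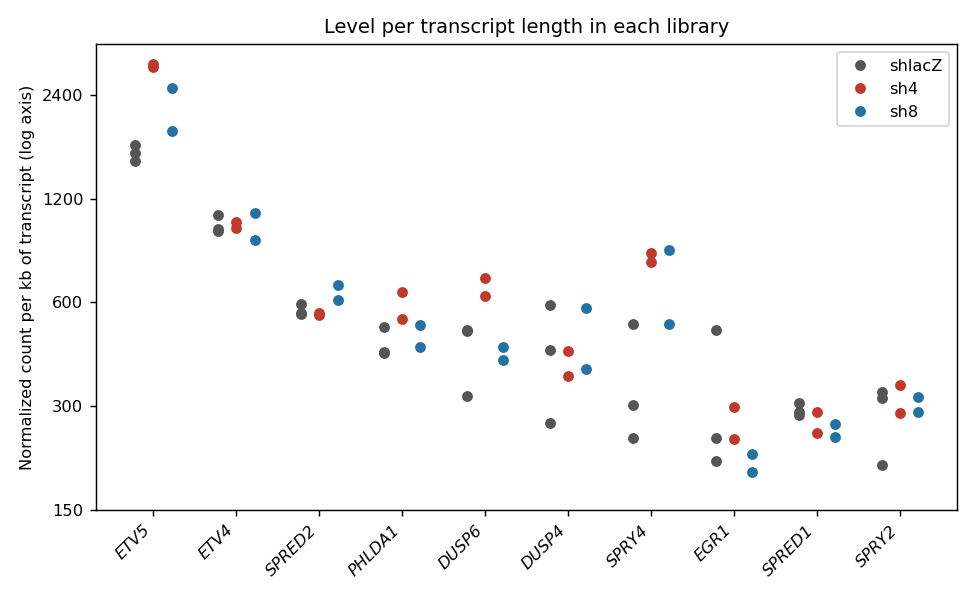
Normalized count per kb of canonical transcript (log axis) for each of the 10 genes, ordered by their control mean, with 1 point per library. ETV5, ETV4 and SPRED2 have the highest control means and do not overlap with each other there, while the 7 genes to their right overlap with their neighbours. The highest control library of DUSP4 lies within the SPRED2 range.

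The control libraries did not agree equally well for all members. The coefficient of variation over the 3 shlacZ libraries was 50.2% for EGR1, 41.0% for SPRY4, 37.3% for DUSP4, 24.7% for SPRY2 and 23.2% for DUSP6, where the median over the 6418 tested genes with a mean of at least 500 was 10.5%. These 5 genes lay above at least 92.3% of that set. In contrast, PHLDA1 was at 10.04%, ETV4 at 5.78%, ETV5 at 5.44%, SPRED1 at 4.06% and SPRED2 at 3.77%. The third shlacZ library was the highest of the 3 for 8 of the 10 members, a place it took for 26.9% of all tested genes, and the first was the lowest for 9 of the 10, against 44.9% of all tested genes. SPRY2 was highest in the second library, and SPRED1 was highest in the first and lowest in the third. Thus the same size of change was harder to detect for EGR1, SPRY4 and DUSP4 than for the SPRED and ETV genes, and values without the third control library are given where they alter a call.

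Sequence motifs of factors tied to ERK signalling were looked for in RefSeq windows from 250 bases before to 50 bases after each start (GRCh38.p14), of which 10 belonged to 7 members. DUSP4, ETV4 and ETV5 had no window and were not searched. The upstream sequences of EGR1 and DUSP6 are shown because their windows matched the CArG box or the CIC octamer, the motifs chosen for printing. Each held 2 copies of its motif in the window, at least 1 of them upstream of the start. In the EGR1 sequence, capitals mark 2 CArG boxes, the element bound by serum response factor, and in the DUSP6 sequence they mark the octamer TNAATGNA read on the opposite strand, the element bound by the repressor CIC, which ERK signalling relieves.
EGR1, chr5:138465229-138465478, plus strand: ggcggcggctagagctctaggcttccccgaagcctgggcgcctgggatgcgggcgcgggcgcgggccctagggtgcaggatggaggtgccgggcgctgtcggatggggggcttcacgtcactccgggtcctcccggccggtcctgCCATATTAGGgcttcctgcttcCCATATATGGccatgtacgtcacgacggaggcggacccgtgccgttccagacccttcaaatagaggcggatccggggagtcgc
DUSP6, chr12:89352502-89352751, minus strand: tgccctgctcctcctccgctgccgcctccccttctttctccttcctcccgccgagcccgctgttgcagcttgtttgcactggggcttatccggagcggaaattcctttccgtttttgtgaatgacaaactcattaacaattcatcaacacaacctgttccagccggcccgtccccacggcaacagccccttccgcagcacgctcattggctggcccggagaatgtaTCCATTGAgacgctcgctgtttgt
The CArG boxes lay at -105 to -96 and -83 to -74 from the EGR1 start. At least 1 CArG box was present in 1.29% of all 35116 windows and at least 2 in 0.0313%. The second DUSP6 octamer lay just past the start, at 2 to 9, after the one printed at -24 to -17. At least 1 such octamer was present in 11.1% of all windows and at least 2 in 1.66%. AP-1 (TGANTCA) matched 2 times in 1 window of SPRED2. At least 1 AP-1 match was present in 7.71% of all windows and at least 2 in 0.515%. For the ETS motif CCGGAAGT, the CRE TGACGTCA and the EGR motif GCGTGGGCG there was no match in a member window, with 4.14%, 1.85% and 0.794% of all windows holding 1. Both strands were searched, and a match is a description of letters, not of binding.

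**Figure D2:**
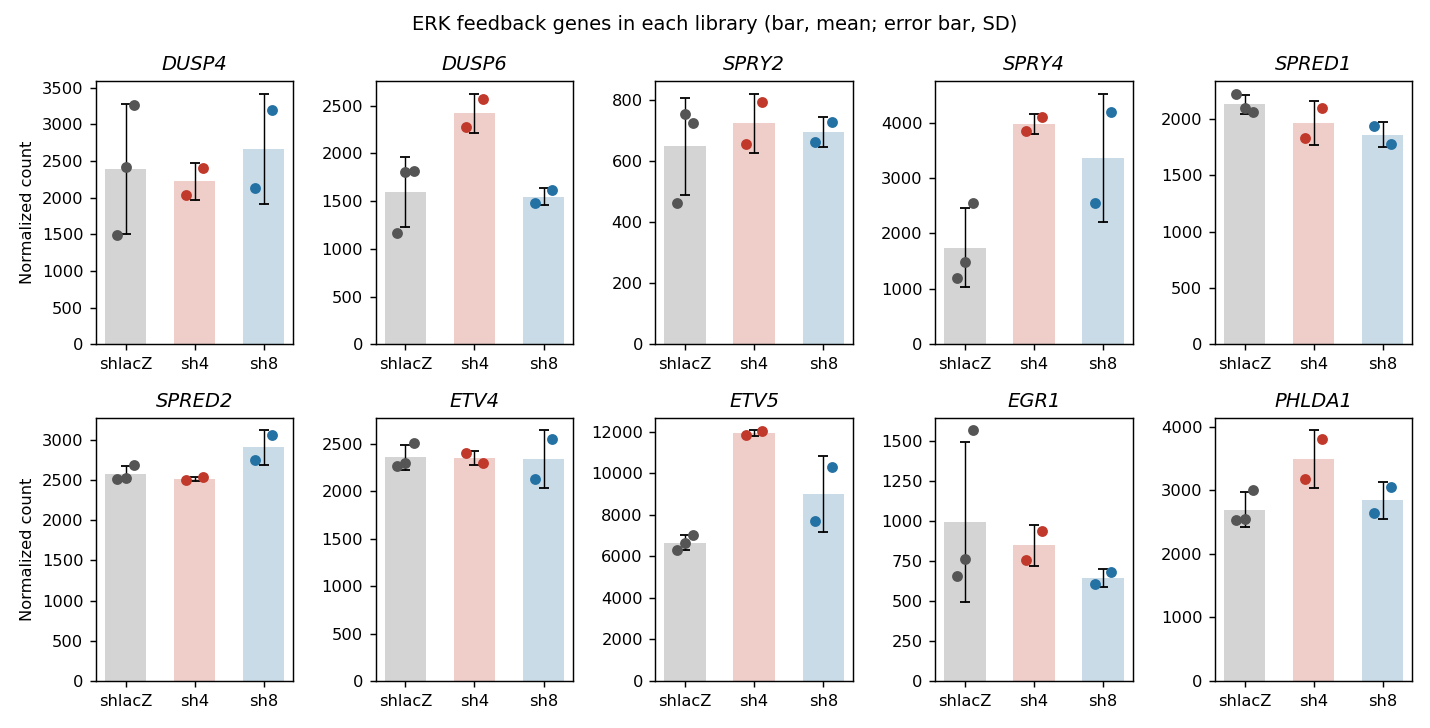
Normalized count (linear axis from 0) of each gene in each library, with the group mean as a bar and the SD as an error bar (n = 3 for shlacZ, n = 2 for sh4 and sh8). All sh4 libraries lie above all shlacZ libraries for DUSP6, SPRY4, ETV5 and PHLDA1, and the shlacZ libraries are widely spread for DUSP4, SPRY4 and EGR1.

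Both hairpins together were first set against the control, which is how the study made its comparison. SPRY4 rose by 1.12 on the log2 scale (SE 0.26, with a limma adjusted p of 0.0398) and the other 9 members did not pass an adjusted p of 0.05. Thus 1 of 10 members was higher, beside 2.55% of all tested genes, and the same gene was the 1 member that also had a log2 fold change over 1, beside 1.30% of all genes. In limma ETV5 was at 0.63 (SE 0.16, adjusted p 0.0548). In this gene alone among the members did no knockdown library overlap with the controls, as was the case, in either direction, for 21.2% of all tested genes. For SPRY4 the groups touched, since the third control library (2547 normalized counts) stood marginally above the first sh8 library (2545). The median log2 fold change of the 10 members was 0.12, and that of all tested genes was -0.0063.

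Next, each hairpin was compared with the same 3 control libraries. Under sh4, 3 of 10 members rose, namely ETV5, SPRY4 and DUSP6, and 0 fell, beside 10.5% of all tested genes that rose. With the fold threshold added, 1 member (SPRY4) was left, beside 4.79% of all genes. In 4 of 10 members, DUSP6, SPRY4, ETV5 and PHLDA1, both sh4 libraries lay above all controls, but separation in either direction was seen in 50.6% of all genes. The median over the members was 0.0931, against -0.0076 over all tested genes, so the rise was carried by a few members and was not shared by the list. Under sh8, 0 of 10 members passed (2 at an unadjusted p under 0.05, SPRY4 and ETV5, and 0 by limma-voom on recovered reads), beside 2.92% of all tested genes in either direction. No overlap with the control was found for SPRED1 (below), SPRED2 and ETV5 (above), as for 34.4% of all genes. The median of the members was 0.10 under sh8, against -0.0099 over all tested genes.

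The hairpins were then compared directly. In sh4 against sh8, 0 of 10 members passed by limma (2 at an unadjusted p under 0.05, DUSP6 and ETV5, and 0 by limma-voom), beside 7.0% of all tested genes. The libraries did not overlap for DUSP6, ETV5, EGR1 and PHLDA1, higher under sh4, and SPRED2, higher under sh8, whereas 54.2% of all genes were separated in this way. Passing under sh4 and not under sh8 therefore does not show that the hairpins differ for these genes.

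**Figure D3:**
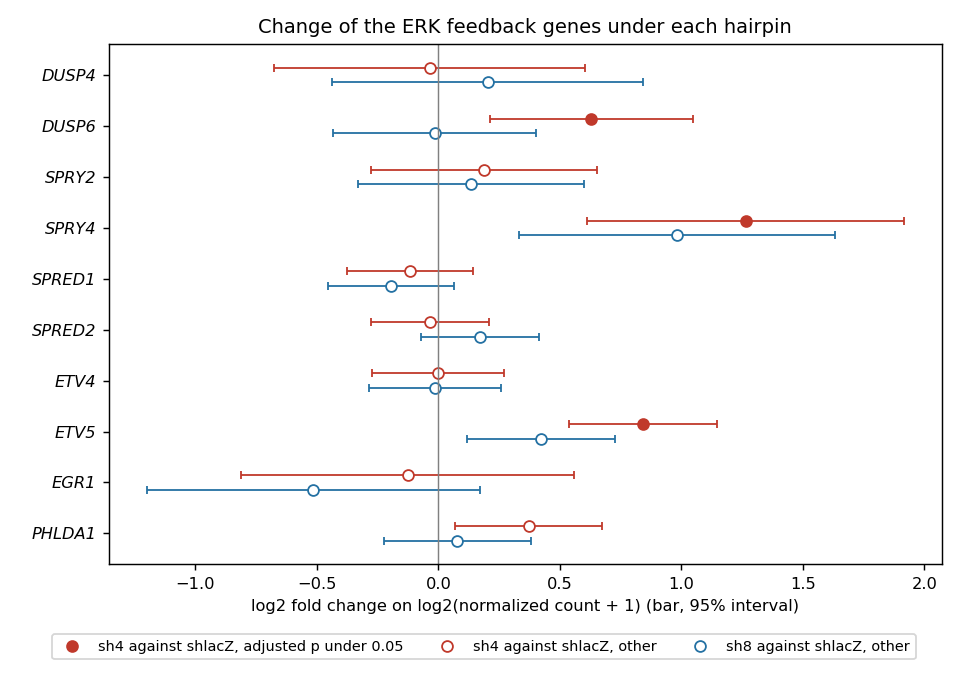
Log2 fold change (x axis, with the 95% interval) of each gene under sh4 (red) and sh8 (blue) against the same shlacZ libraries. Filled points mark an adjusted p under 0.05, which DUSP6, SPRY4 and ETV5 reached under sh4 and no gene reached under sh8.

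The 2 phosphatases among the members take phosphate off MAP kinases. DUSP6, a cytoplasmic enzyme with a strong preference for ERK, is encoded on chromosome 12 (89347235 to 89352501, minus strand, hg38). It was at 1166, 1803 and 1813 normalized counts in the control, 2276 and 2567 under sh4, and 1483 and 1613 under sh8. Both sh4 libraries were thus above every other library, while the sh8 libraries fell within the control range. By limma, sh4 against the control was 0.63 (SE 0.19, adjusted p 0.0374) and sh8 was -0.01 (SE 0.19, adjusted p 0.978). The difference between the hairpins was 0.64 (95% interval 0.19 to 1.10, adjusted p 0.0920). The rise under sh4 did not withstand the loss of a library from either hairpin arm, with an adjusted p by limma of 0.115 and 0.203 without the first and second sh4 library and 0.0565 and 0.0570 without the first and second sh8 library. Without the first shlacZ library, the lowest of the controls, the value under sh4 was 0.42 (adjusted p 0.0201) and the difference between the hairpins reached an adjusted p of 0.00598. DUSP4, a nuclear phosphatase of ERK and other MAP kinases, is encoded on chromosome 8. It was at 1486, 2418 and 3268 normalized counts in the control, 2044 and 2405 under sh4, and 2137 and 3202 under sh8. The hairpin libraries all fell inside the control range. Its log2 fold change of -0.04 (95% interval -0.68 to 0.60) under sh4 and 0.20 (-0.44 to 0.84) under sh8 left room for sizeable changes in either direction.

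Sprouty proteins are inducible inhibitors that act between the receptor and RAF. SPRY4 lies on chromosome 5 (142310427 to 142326455, minus strand). It was at 1192, 1484 and 2547 normalized counts in the control, 3844 and 4098 under sh4, and 2545 and 4185 under sh8. The sh4 libraries and the second sh8 library were well above all controls, and the first sh8 library was level with the highest control. The log2 fold change by limma was 1.26 under sh4 (SE 0.29, adjusted p 0.0129) and 0.98 under sh8 (SE 0.29, adjusted p 0.107), and the hairpins differed by 0.28 (95% interval -0.43 to 0.997). The third control library weighed on the result, for without it the value by limma under sh4 was 1.58 (adjusted p 0.00143), and under sh8 it was 1.29 (adjusted p 0.0199). By contrast, an sh4 arm reduced to 1 library, whose spread is then assumed to be that of the other groups, gave an adjusted p by limma of 0.0783 without the first and 0.0947 without the second sh4 library. For both hairpins together, SPRY4 lost its call by limma without the first or second shlacZ library (adjusted p 0.0774 and 0.178), the first or second sh4 library (0.104 and 0.0795) or the second sh8 library (0.0684). SPRY2 (chromosome 13, 80335976 to 80341126, minus strand) was at 463, 754 and 724 normalized counts in the control, 655 and 792 under sh4, and 660 and 728 under sh8. Its groups overlapped, with log2 fold changes of 0.19 (95% interval -0.28 to 0.65) and 0.13 (-0.33 to 0.60). Their relative SPRY1 is not a member but was in the list of other ERK targets. It was at 485 to 596 normalized counts in the control, 929 and 702 under sh4, and 812 and 1149 under sh8, so that all 4 hairpin libraries were above the controls. Its log2 fold change by limma under sh4 was 0.61 (adjusted p 0.0416), and under sh8 it was 0.87 (adjusted p 0.0388). The call of SPRY1 under sh4 was lost without either sh4 library and when the second or when the third control library was left out (adjusted p by limma 0.0611 to 0.310). Under sh8 it was lost without each library in turn other than the first shlacZ library (adjusted p by limma 0.0544 to 0.317).

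SPRED1 and SPRED2 carry a Sprouty-related domain and bring neurofibromin to the membrane, where it inactivates RAS. SPRED1 (chromosome 15, 38252836 to 38357249, plus strand) was at 2225, 2099 and 2060 normalized counts in the control, 1827 and 2101 under sh4, and 1939 and 1781 under sh8. SPRED2 (chromosome 2, 65310851 to 65432637, minus strand) was at 2515, 2528 and 2690 in the control, 2497 and 2531 under sh4, and 2754 and 3055 under sh8. Both sh8 libraries were thus below the controls for SPRED1 and above them for SPRED2, by small margins. SPRED1 was at -0.12 under sh4 (95% interval -0.38 to 0.14) and -0.19 under sh8 (-0.45 to 0.07). SPRED2 was at -0.04 under sh4 (-0.28 to 0.21) and 0.17 under sh8 (-0.07 to 0.41). These intervals, together with those of ETV4, were the narrowest among the members. The third relative, SPRED3, was counted at 9.43 to 11.4 normalized counts in the control, too few to set beside them.

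ETV4 and ETV5 are ETS transcription factors of the PEA3 group that carry ERK signals to growth and invasion genes. ETV5 (chromosome 3, 186046314 to 186110318, minus strand) was at 6300, 6642 and 7024 normalized counts in the control, 11824 and 12028 under sh4, and 7710 and 10286 under sh8. All hairpin libraries were above all controls, and the sh4 libraries were above the sh8 libraries. The rise under sh4 was 0.84 (SE 0.14, adjusted p 0.00240 by limma), and it passed in 17 of the 17 alternative settings tried. Under sh8 the value was 0.42 (SE 0.14, adjusted p 0.135 by limma), and the hairpins differed by 0.42 (95% interval 0.09 to 0.75, adjusted p 0.127). Over both hairpins, ETV5 passed the limma test in 3 of 17 alternatives. Its value was 0.68 with upper quartile scaling (adjusted p 0.0401 by limma) and 0.77 without the first sh8 library (adjusted p 0.0124). For the mean of both hairpins in the fit with 3 groups it was 0.63 (adjusted p 0.00606 by limma). ETV4 (chromosome 17, 43527844 to 43579620, minus strand) behaved otherwise. It was at 2262, 2294 and 2512 normalized counts in the control, 2407 and 2299 under sh4, and 2126 and 2555 under sh8, that is, at nearly the same mean in each group. Its 95% interval was -0.27 to 0.27 under sh4 and -0.28 to 0.26 under sh8, so that a rise of the size seen for ETV5 under sh4 lay outside it. ETV1, the remaining PEA3 factor and one of the other ERK targets, was at 2034 to 2205 normalized counts in the control, 3546 and 3716 under sh4, and 3274 and 3894 under sh8. By limma it rose under both hairpins, by 0.76 (adjusted p 0.00191) for sh4 and by 0.73 (adjusted p 0.0124) for sh8. The call under sh8 was lost without the second shlacZ library or the second sh8 library, with adjusted p values by limma up to 0.152.

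EGR1 is an immediate early zinc finger factor, induced within minutes of ERK activation and short-lived as a transcript. It lies on chromosome 5 (138465479 to 138469303, plus strand) and was at 654, 758 and 1565 normalized counts in the control, 756 and 938 under sh4, and 605 and 683 under sh8. The third control library was far above every other library. The log2 fold change was -0.13 under sh4 (95% interval -0.81 to 0.56) and -0.52 under sh8 (-1.20 to 0.17), the widest intervals among the members. Under sh4 the sign of EGR1 turned without that control library (0.26) and without the first sh4 library (0.0294). PHLDA1, a small protein of the pleckstrin homology-like family that is used as an ERK output marker, lies on chromosome 12 (76025447 to 76031776, minus strand). It was at 2537, 2546 and 3011 normalized counts in the control, 3172 and 3814 under sh4, and 2636 and 3052 under sh8. Both sh4 libraries were above the controls. By limma the value under sh4 was 0.37 (SE 0.14, adjusted p 0.0760) and under sh8 it was 0.08 (SE 0.14, adjusted p 0.811). With other scalings PHLDA1 passed under sh4, at an adjusted p by limma of 0.0321 with upper quartile scaling and 0.0154 with quantile normalization, in a range of 0.0154 to 0.389 over all alternatives.

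**Figure D4:**
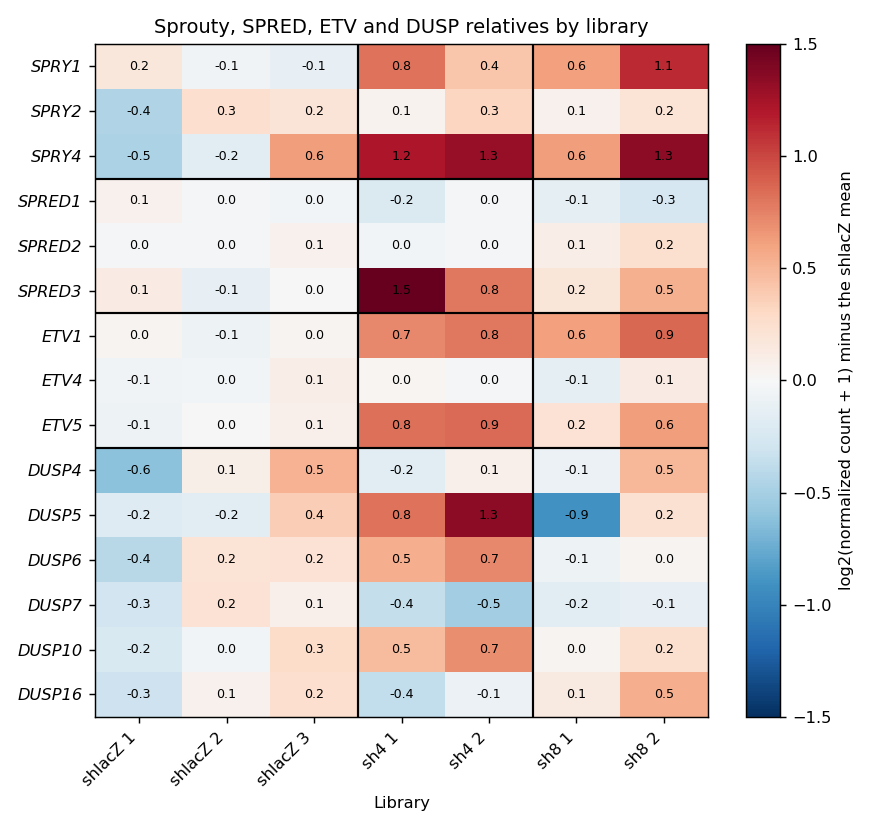
Level of each relative in each library as log2(normalized count + 1) minus the mean of the 3 shlacZ libraries (color scale and printed numbers). SPRY1, SPRY2, SPRY4, SPRED3, ETV1, ETV5 and DUSP10 are above the control mean in all 4 hairpin libraries, while SPRED1 and DUSP7 are below it in all 4. The margins are small for SPRY2, for DUSP10 in the first sh8 library and for SPRED1 in the second sh4 library.

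The members did not follow a single pattern across the libraries. Over the 7 libraries on log2(normalized count + 1), Pearson's r was 0.905 between SPRY4 and ETV5, 0.85 between ETV5 and PHLDA1, 0.82 between DUSP6 and PHLDA1 and 0.80 between DUSP4 and SPRY2, whereas SPRED1 was at -0.73 with SPRY4 and -0.601 with ETV5. EGR1 was at -0.04 with ETV5. These are descriptions over 7 libraries that share the same 3 controls and the 2 hairpins, and they hold the group differences as well as the spread between replicates. Among 12040 other genes with a mean of at least 50, LMAN2, SCAMP2, TRAFD1, NOTCH1 and FNTB were most like DUSP6, with r from 0.986 to 0.991. None of the 5 passed the test under sh4 or sh8 (adjusted p by limma at least 0.0643). The genes with the highest mean r to all 10 members, TRIB3, TTPAL, ENSG00000271976, SOGA1 and STX5, reached means of 0.567 to 0.574.

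Some members share their locus with other transcripts, and the strand setting of the counting is not given in the sources used here. SPRY4 is overlapped by the antisense SPRY4-AS1, which was at 42.3, 19.9 and 32.2 normalized counts in the control, 119 and 137 under sh4, and 65.9 and 61.0 under sh8. SPRY4-AS1 rose by limma under sh4 (log2 fold change 2.04, adjusted p 0.00225), with 1.05 (adjusted p 0.122) under sh8. It was counted at a small part of the SPRY4 level in every library. DHX8, antisense to ETV4, had a mean of 1090.5 normalized counts over the 7 libraries and did not pass the test in any comparison. DGKG, on the same strand within the ETV5 locus, had a mean of 148 normalized counts. How far reads were shared within these pairs was not tested.

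Other genes of the pathway give the setting of these values, in lists that were written from general knowledge. Of 15 tested genes among 16 other ERK targets, 4 rose and 1 fell under sh4, and 3 rose and 1 fell under sh8, beside 22.5% and 2.92% of all tested genes that passed in either direction. For both hairpins together, 2 of the 15 rose (SPRY1 and ETV1; 1 by limma-voom, ETV1), beside 4.61% of all genes. ETV1 lost this call when the second or when the third control library was left out (adjusted p by limma 0.0685 and 0.0527), and SPRY1 lost it without any 1 of the 3 shlacZ libraries, the first sh4 library or the second sh8 library (adjusted p by limma 0.0503 to 0.179). The median log2 fold change of these targets was 0.44 for sh4 and -0.06 for sh8. Over all tested genes it was -0.0076 and -0.0099. Besides SPRY1 and ETV1, EPHA2, an ephrin receptor, rose under sh4 (201 to 300 normalized counts in the control, 474 and 552 under sh4; log2 fold change 1.07, adjusted p 0.00603 by limma), as did PLAUR, the urokinase receptor, from a low level (15.7 to 21.7 against 47.4 and 57.5; 1.45, adjusted p 0.0209). MYC, whose transcript and protein both respond to ERK, moved the other way. It was at 3679 to 5178 normalized counts in the control and 1740 and 1437 under sh4 (log2 fold change -1.51, adjusted p 0.000287 by limma), while under sh8 it was at 3857 and 4289 (-0.15, adjusted p 0.663). EPHA4, another ephrin receptor, rose under sh8 (1920 to 2864 in the control, 4024 and 4662 under sh8; 0.86, adjusted p 0.0233 by limma), with 2320 and 2230 under sh4 (-0.06, adjusted p 0.817). CCND1, which encodes cyclin D1, fell under sh8 (12243 to 17050 in the control, 6719 and 8562 under sh8; -0.90, adjusted p 0.0195 by limma) and was at -0.11 under sh4 (adjusted p 0.684).

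Among 12 immediate early genes in the table, ZFP36, which encodes an RNA-destabilizing protein, rose under sh4 (0.99, adjusted p 0.0350 by limma) and 0 of 12 passed under sh8 (by limma, with 0 at an unadjusted p under 0.05, and 0 by limma-voom). The third control library, which was the highest for EGR1, was also the highest for EGR2, EGR3, IER2, JUNB and BTG2, but the lowest for FOS, FOSB, JUN, NR4A1 and CCN1, so that the immediate early genes were not raised in it together. Of 6 tested MAP kinase phosphatases beyond the members, DUSP10, which acts mainly on JNK and p38, rose under sh4 (0.59, adjusted p 0.0349 by limma), and 0 of 6 passed under sh8 (by limma, with 1 at an unadjusted p under 0.05, and 0 by limma-voom). DUSP5, a nuclear ERK phosphatase, was at 76.4 to 113 normalized counts in the control, 155 and 223 under sh4 and 46.1 and 103 under sh8, and did not pass (adjusted p 0.0507 under sh4 by limma). The median of the immediate early genes was 0.20 under sh4 and -0.06 under sh8, and that of the phosphatases was 0.03 and 0.0017.

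Genes of the kinase cascade itself and of the steps on either side of it are read against the 22.5% of all tested genes that passed in either direction under sh4 and the 2.92% under sh8. Of the 11 genes of the core cascade, BRAF rose (0.49, adjusted p 0.0314 by limma) and MAP2K2, which encodes MEK2, fell (-0.57, adjusted p 0.0273) under sh4, and 0 of 11 passed under sh8 (by limma, with 2 at an unadjusted p under 0.05, and 0 by limma-voom). Among 12 adaptors and brakes upstream of RAF, the exchange factor SOS2 rose (0.63, adjusted p 0.0104 by limma) and the RAF inhibitor PEBP1 fell (-0.69, adjusted p 0.0114) under sh4. Under sh8 the related SOS1 rose (0.61, adjusted p 0.0380 by limma) and the adaptor GRB2 fell (-0.64, adjusted p 0.0454). Of 12 downstream kinases and nuclear factors, 4 rose and 2 fell under sh4 and 0 passed under sh8 (by limma, with 4 at an unadjusted p under 0.05, and 0 by limma-voom). The largest by absolute log2 fold change under sh4 were ELK3, an ETS partner of serum response factor (1.11, adjusted p 0.000998 by limma), ETS2 (-1.07, adjusted p 0.0115), the ribosomal S6 kinase gene RPS6KA1 (0.91, adjusted p 0.00257) and ETS1 (-0.69, adjusted p 0.00365). CIC, the repressor whose octamer was among the motifs searched, had a log2 fold change of 0.44 (adjusted p 0.0747 by limma) for sh4 and 0.38 (adjusted p 0.239) for sh8. The medians of the core cascade were 0.01 under sh4 and -0.01 under sh8, those of the adaptors and brakes 0.12 and 0.15, and those of the downstream factors -0.11 and -0.14. Leaving out single libraries removed 12 of the 17 list calls under sh4 and 6 of the 6 under sh8 at least once. Without the first or the second sh4 library 10 calls under sh4 were lost each time, without the second shlacZ library 7, without the third 5, and without the first or second sh8 library 2 and 3. Under sh8, 6 calls were lost without the second shlacZ library or the second sh8 library, 5 without the first sh8 library, 4 without the third shlacZ library and 3 without either sh4 library.

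**Figure D5:**
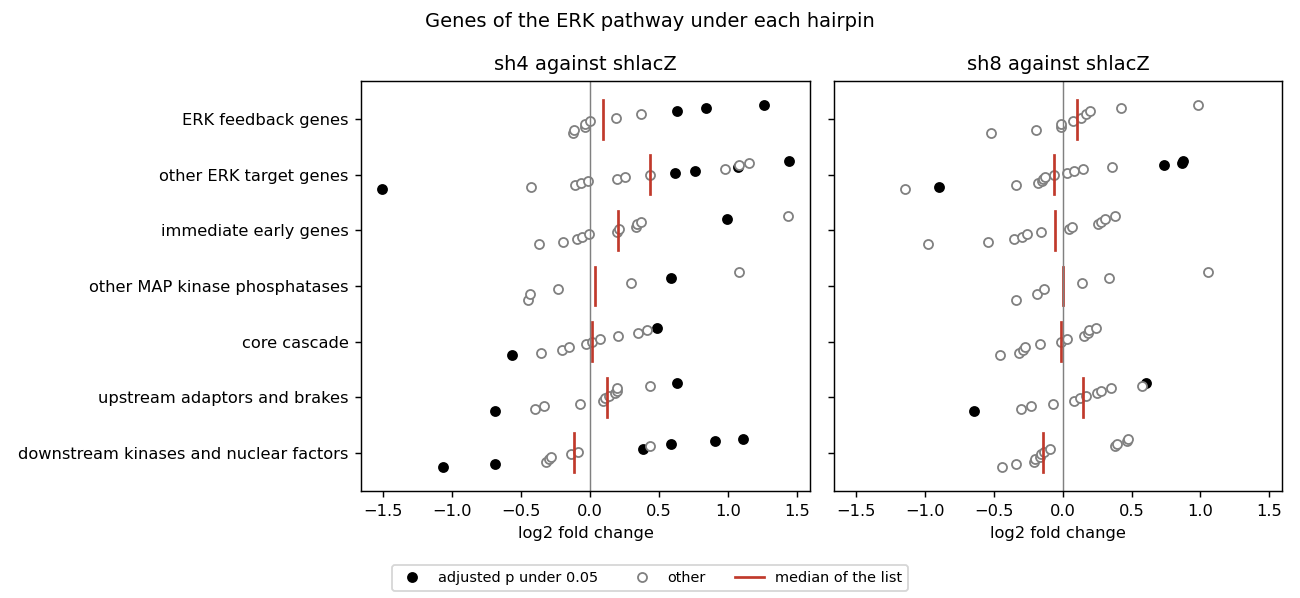
Log2 fold change (x axis) of every tested gene of each list under sh4 (left) and sh8 (right), with black points past an adjusted p of 0.05 and a red line at the median of the list. The ERK feedback genes and other ERK targets hold genes on both sides of 0 under each hairpin, and the medians of the feedback genes are 0.0931 and 0.10.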

How the data were processed

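RNA of the 7 libraries was depleted of ribosomal RNA and sequenced as stranded read pairs. According to the methods and labels, the authors used cutadapt for adapter removal, STAR for alignment to hg38, Salmon for quantification and DESeq2 for scaling. Tool versions and the annotation are not given in the sources used here. The authors deposited 1 table of normalized counts for 21305 genes, in which each value is a count divided by 1 size factor per library. Such scaling rests on the premise that the bulk of the genes keep their level. Genes with under 10 reads summed over the libraries were not in it. All values were whole multiples of 1 read within a tolerance of 0.001, so whole reads were recovered for the sums per library and for limma-voom.

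Values were tested with limma 3.58.1 (R 4.3.3, empirical Bayes with variance trend) on log2(normalized count + 1), a scale that understates the change of low genes, for 15420 genes (average over the 7 libraries of 10 or more), with Benjamini-Hochberg adjustment over all of them. A gene passed at an adjusted p under 0.05, and an absolute log2 fold change over 1 was counted beside it. Both hairpins against shlacZ were fitted with 2 levels, and each hairpin against shlacZ and sh4 against sh8 in 1 fit of 3 groups with a common variance estimate. The comparisons of sh4 and sh8 with shlacZ share the control libraries. Single-library values have no error of their own. The fits were also run on simulated counts in which sh4 and sh8 had the same known changes, a setting that differs from these data.

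The members and gene lists were chosen with earlier results of these data known, and the lists were written from general knowledge. The genes named were the 10 members, list genes past the test under sh4 or sh8 (at most 4 a list, by absolute log2 fold change), the 5 genes most like DUSP6 and the 5 most like the members by Pearson's r, and GRASLND. Chosen after their values were seen were SPRY1, ETV1, SPRED3 and DUSP5 as relatives of the members, CIC as the factor of a motif, overlapping transcripts, and genes whose level differed between sh4 and sh8. Positions and transcript lengths were taken from GENCODE release 44 (hg38), in which 99.9% of the identifiers had an entry.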

Additional observations from a re-analysis of the deposited data

Results flagged for a closer look

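None of the 10 members had a knockdown library that stood apart from the other 3. The nearest was SPRY4, where the first sh8 library was separated by 0.792 of the whole range, below Dixon's critical value for 4 libraries.

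Of the genes in the pathway lists, 9 differed between sh4 and sh8 in the direct test (limma, adjusted p under 0.05). They were 4 of 15 tested other ERK targets, 1 of 6 phosphatases, 1 of 12 adaptors and brakes and 3 of 12 downstream genes. Of 12 immediate early genes and 11 core cascade genes, 0 passed. Over all tested genes the share was 7.0%. The 9 are given as sh4 minus sh8 on the log2 scale. Among other ERK targets these were CCND1 (0.79), EPHA2 (0.93), EPHA4 (-0.93) and MYC (-1.36), where MYC was at 1740 and 1437 normalized counts under sh4 and 3857 and 4289 under sh8. Upstream and downstream of the kinases these were GRB2 (0.84), RPS6KA1 (1.04), ELK3 (0.64) and ETS1 (-0.53). DUSP8, a phosphatase of JNK and p38 that was named because of this difference, was at -1.51, with 39.5 and 39.6 normalized counts under sh4, 92.3 and 141 under sh8 and 50.5 to 58.7 in the control. Of these 9, MYC passed in every fit that left out 1 library, and the other 8 did not. Without the second sh4 library, 8 of the 9 calls were lost, 7 were lost without either sh8 library, 6 without the first sh4 library, 3 without the second shlacZ library and 2 without the third.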

How the results depend on the processing

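The rise of ETV5 under sh4 passed in all 17 alternatives, that of SPRY4 under sh4 in 14, that of SPRY4 in both hairpins together in 11, and that of DUSP6 under sh4 in 11. The cause of the losses was not tested, other than that leaving out a library or fitting the 2 groups alone leaves fewer samples. For both hairpins together, 1 member passed. With upper quartile scaling, and for the mean of both hairpins in the fit with 3 groups, 2 passed (ETV5 in addition). Without the variance trend 0 passed, and 0 to 2 when a library was left out. Under sh4, 3 passed, against 4 under upper quartile scaling and under quantile normalization (PHLDA1 in addition), 2 in a fit of the 2 groups alone (without DUSP6), 1 without the variance trend and 1 to 3 when a library was left out. Under sh8, 0 passed, and 0 to 1 when a library was left out. In sh4 against sh8, 0 passed, against 2 under quantile normalization, 1 in a fit of the 2 groups alone, and 0 to 1 when a library was left out. Among the lists, quantile normalization gave 0 in place of 1 for immediate early genes and 4 in place of 2 for the core cascade under sh4, 1 in place of 0 for the core cascade and for downstream factors under sh8, and 1 in place of 0 for the core cascade in sh4 against sh8, and no minimum mean gave 1 in place of 3 for downstream factors in sh4 against sh8.

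Over all tested genes, 711 passed for both hairpins together, against 138 without the variance trend, 2534 for the mean of both hairpins and 64 to 1144 when a library was left out. For sh4 the count of 3464 ranged from 1413 to 4865, for sh8 the count of 451 from 53 to 1600 (59 without the variance trend, 299 for the 2 groups alone), and for sh4 against sh8 the count of 1079 from 144 to 1975 (476 without the variance trend).

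The direction of several members that did not pass changed sign, with adjusted p never below 0.236. Upper quartile scaling and quantile normalization turned ETV4 (0.043 and 0.0638 for both hairpins, 0.0495 and 0.095 under sh4, 0.0366 and 0.0327 under sh8), DUSP4 under sh4 (0.0145 and 0.0602), SPRED2 under sh4 (0.0149 and 0.0556) and DUSP6 under sh8 (0.0362 and 0.0338). When a library was left out, both hairpins together ranged from -0.22 to 0.34 for DUSP4, -0.0641 to 0.29 for SPRY2, -0.0495 to 0.0395 for ETV4 and -0.57 to 0.0623 for EGR1. The ranges under sh4 were -0.34 to 0.23 for DUSP4, -0.0367 to 0.32 for SPRY2, -0.034 to 0.0461 for ETV4 and -0.37 to 0.26 for EGR1. Under sh8 they were -0.10 to 0.49 for DUSP4, -0.23 to 0.0929 for DUSP6, -0.0914 to 0.26 for SPRY2, -0.15 to 0.12 for ETV4 and -0.0287 to 0.18 for PHLDA1. For sh4 against sh8 they were -0.53 to 0.0535 for DUSP4, -0.082 to 0.19 for SPRY2, -0.0765 to 0.64 for SPRY4, -0.0243 to 0.18 for SPRED1 and -0.12 to 0.15 for ETV4.

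Whether the replicate numbers pair the libraries could not be decided. The correlation of deviations from the group means ranged from -0.15 to 0.475 for same-numbered libraries and from -0.475 to 0.346 for others. With only 2 libraries each, the deviations within sh4 and within sh8 mirror each other, so these correlations cannot tell pairing from its absence. With the replicate number as a block, in which the third shlacZ library has no partner, 1 member passed under sh8 (SPRY4, 1.29, adjusted p 0.00167 by limma) and 1 in sh4 against sh8 (DUSP6), PHLDA1 passed under sh4, and the count over all genes for both hairpins was 42. With the block, the sign turned for ETV4 (0.0395 for both hairpins, 0.0461 under sh4, 0.0329 under sh8) and EGR1 (0.0623 for both hairpins, 0.26 under sh4). It also turned for DUSP4 under sh4 (0.23) and DUSP6 under sh8 (0.0929). These estimates, and the 1.29 of SPRY4 under sh8, are the same as without the third shlacZ library. Having no partner, that library carries no weight in the block comparisons with the control, so these turns say nothing about pairing. The planned edgeR test of recovered reads was not run.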
